A study of Mus musculus with 2 samples.

Results

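The genes described here are the 10 members of the VEGF and angiopoietin system that were chosen by symbol: *Vegfa*, *Pgf*, *Kdr*, *Flt1*, *Nrp1*, *Angpt1*, *Angpt2*, *Tek*, *Tie1* and *Plvap*. They are 10 of the 32285 genes in the feature table of the scRNAseq libraries. The study subjected wildtype male C57BL/6J mice of 19 weeks to unilateral kidney ischemia and profiled whole-kidney cell suspensions by droplet scRNAseq. The ischemia library came from a kidney given 27 min of ischemia and 24 h of reperfusion, and the control library came from a contralateral kidney without injury. No transgene and no drug under study are given for either group. The paper's methods for its kidney ischemia surgery list ketamine/xylazine anesthesia, with bupivacaine and buprenorphine for pain. Each group is 1 library, and it is not stated whether both kidneys came from the same mouse. No test between conditions was therefore possible, and every interval below is a 95% interval that covers counting error only, not the spread between mice.

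After filtering, 12586 control and 13116 ischemia cells remained, with 124679362 and 128733541 UMIs (unique molecular identifiers, one for each captured transcript) and medians of 3839 and 2138.5 UMIs per cell. The libraries shared 58 barcodes. Clustering gave 19 clusters. From marker genes 13 cell types were named, each written "like" because the names were rebuilt here, and 4 clusters stayed unnamed. One unnamed cluster of low depth held 4541 control and 5903 ischemia cells. Endothelial cell (EC)-like cells numbered 905 and 1039, podocyte-like cells 95 and 64, and pericyte-like cells, a class that includes smooth muscle and fibroblasts, 176 and 243. In each library all 10 markers on the EC list were detected in EC-like cells, and all 8 on the podocyte list in podocyte-like cells. *Havcr1*, a gene of injured proximal tubule (PT), was at 7.52 CPM (UMIs of a gene scaled to all UMIs of the cells) in control and 445 in ischemia PT-like cells. It was also at 1.81 and 99.2 CPM in EC-like and at 6.25 and 111 CPM in T cell-like cells.

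VEGF-A is secreted by epithelial cells next to capillaries and binds the receptors VEGFR1 (*Flt1*) and VEGFR2 (*Kdr*) on endothelium, with neuropilin 1 (*Nrp1*) as co-receptor. In the glomerulus, podocytes supply the VEGF-A that keeps the fenestrated capillary in place. The angiopoietins act on a second endothelial receptor, Tie2 (*Tek*), with Tie1 as its partner: angiopoietin 1 keeps vessels quiescent, while angiopoietin 2 can oppose it. *Plvap* encodes the protein of the diaphragms that span endothelial fenestrae and caveolae, and it is known to be absent from most mature glomerular capillaries.

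In the mouse genome (GRCm38, GENCODE M21), all 10 genes are protein coding. *Vegfa* lies at chr17:46016993-46032369 (minus strand), *Pgf* at chr12:85166635-85177790 (minus), and the VEGF receptors share a chromosome, with *Kdr* at chr5:75932827-75978458 and *Flt1* at chr5:147561604-147726011 (both minus). *Nrp1* lies at chr8:128358604-128503363 (plus), *Angpt2* at chr8:18690263-18741562 (minus), *Plvap* at chr8:71497765-71511752 (minus) and *Angpt1* at chr15:42424723-42676977 (minus). *Tek* lies at chr4:94739289-94874976 (plus) and *Tie1* at chr4:118471191-118490061 (minus).

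Promoter sequence from RefSeq (GRCm38.p6), the 250 bases before a transcript start, was matched for 7 of the 10 genes in 9 windows. *Angpt1*, *Angpt2* and *Plvap* had no entry. The first window of the ligand *Vegfa* and those of its receptors *Kdr* and *Flt1* are shown, because these 3 genes carry the ligand and receptor values below. Sequences run 5′ to 3′ on the gene's strand, and capitals mark the GC box GGGCGG on either strand.
Vegfa, chr17:46032378-46032627, minus strand: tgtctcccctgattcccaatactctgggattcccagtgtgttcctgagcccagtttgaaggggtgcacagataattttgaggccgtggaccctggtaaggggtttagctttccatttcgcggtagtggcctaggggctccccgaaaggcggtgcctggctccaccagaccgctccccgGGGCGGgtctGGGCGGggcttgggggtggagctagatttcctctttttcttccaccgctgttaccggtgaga
Kdr, chr5:75978456-75978705, minus strand: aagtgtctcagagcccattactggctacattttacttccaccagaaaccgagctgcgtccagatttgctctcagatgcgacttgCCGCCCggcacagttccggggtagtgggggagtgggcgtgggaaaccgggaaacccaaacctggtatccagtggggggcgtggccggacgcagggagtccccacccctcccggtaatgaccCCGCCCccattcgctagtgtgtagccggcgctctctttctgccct
Flt1, chr5:147726012-147726261, minus strand: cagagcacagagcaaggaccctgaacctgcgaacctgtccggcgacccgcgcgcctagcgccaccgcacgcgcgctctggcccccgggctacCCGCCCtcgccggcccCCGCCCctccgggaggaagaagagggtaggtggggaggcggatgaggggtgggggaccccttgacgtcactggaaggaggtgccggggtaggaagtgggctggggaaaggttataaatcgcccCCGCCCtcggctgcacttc
The GC box began 72 and 62 bases before the start in this *Vegfa* window, 166 and 45 bases before it in *Kdr*, and 158, 142 and 19 bases before it in *Flt1*. It was in 32.7% of all 32851 promoter windows of this length. The letters ACGTG, 1 form of the core of a hypoxia response element, were found on either strand in 1 of the 9 windows and in 16.6% of all windows. The match was in the second window of *Vegfa* at chr17:46025164-46025413, beginning 211 bases before the start. That window lies inside the *Vegfa* gene (46016993-46032369), before a transcript start within it, and not upstream of the gene. The other form of the core, GCGTG, was not searched for. The *Kdr* window above holds these letters, and the *Flt1* window above holds them on the other strand. Of the windows not shown, the second of *Vegfa*, the first of *Pgf* and that of *Nrp1* also hold them on 1 of the strands. The ETS words CAGGAAG and CCGGAAG, in 17.0% of all windows, and the forkhead word TGTTTAC, in 3.17%, gave 0 matches in the 9 windows, which says only that these letters are not there. None of the 4 motifs overlaps another in its letters.

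Across the kidney the 10 genes fell into a set held by EC-like cells and a set spread over other types. EC-like cells held 93.7% of the control library's *Plvap* UMIs, 92.8% of *Flt1*, 91.8% of *Tie1*, 90.4% of *Tek* and 84.5% of *Kdr*. In the ischemia library the same shares were 93.4%, 89.5%, 90.1%, 90.4% and 80.3%. By contrast EC-like cells held 34.3% and 21.6% of *Nrp1*, 20.5% and 36.1% of *Pgf*, 10.3% and 20.8% of *Angpt2*, 2.25% and 3.31% of *Vegfa*, and 2.14% and 3.58% of *Angpt1*. These libraries count 3′ transcript ends, so levels are compared between libraries and cell types for a gene and not between genes.

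**Figure D1:**
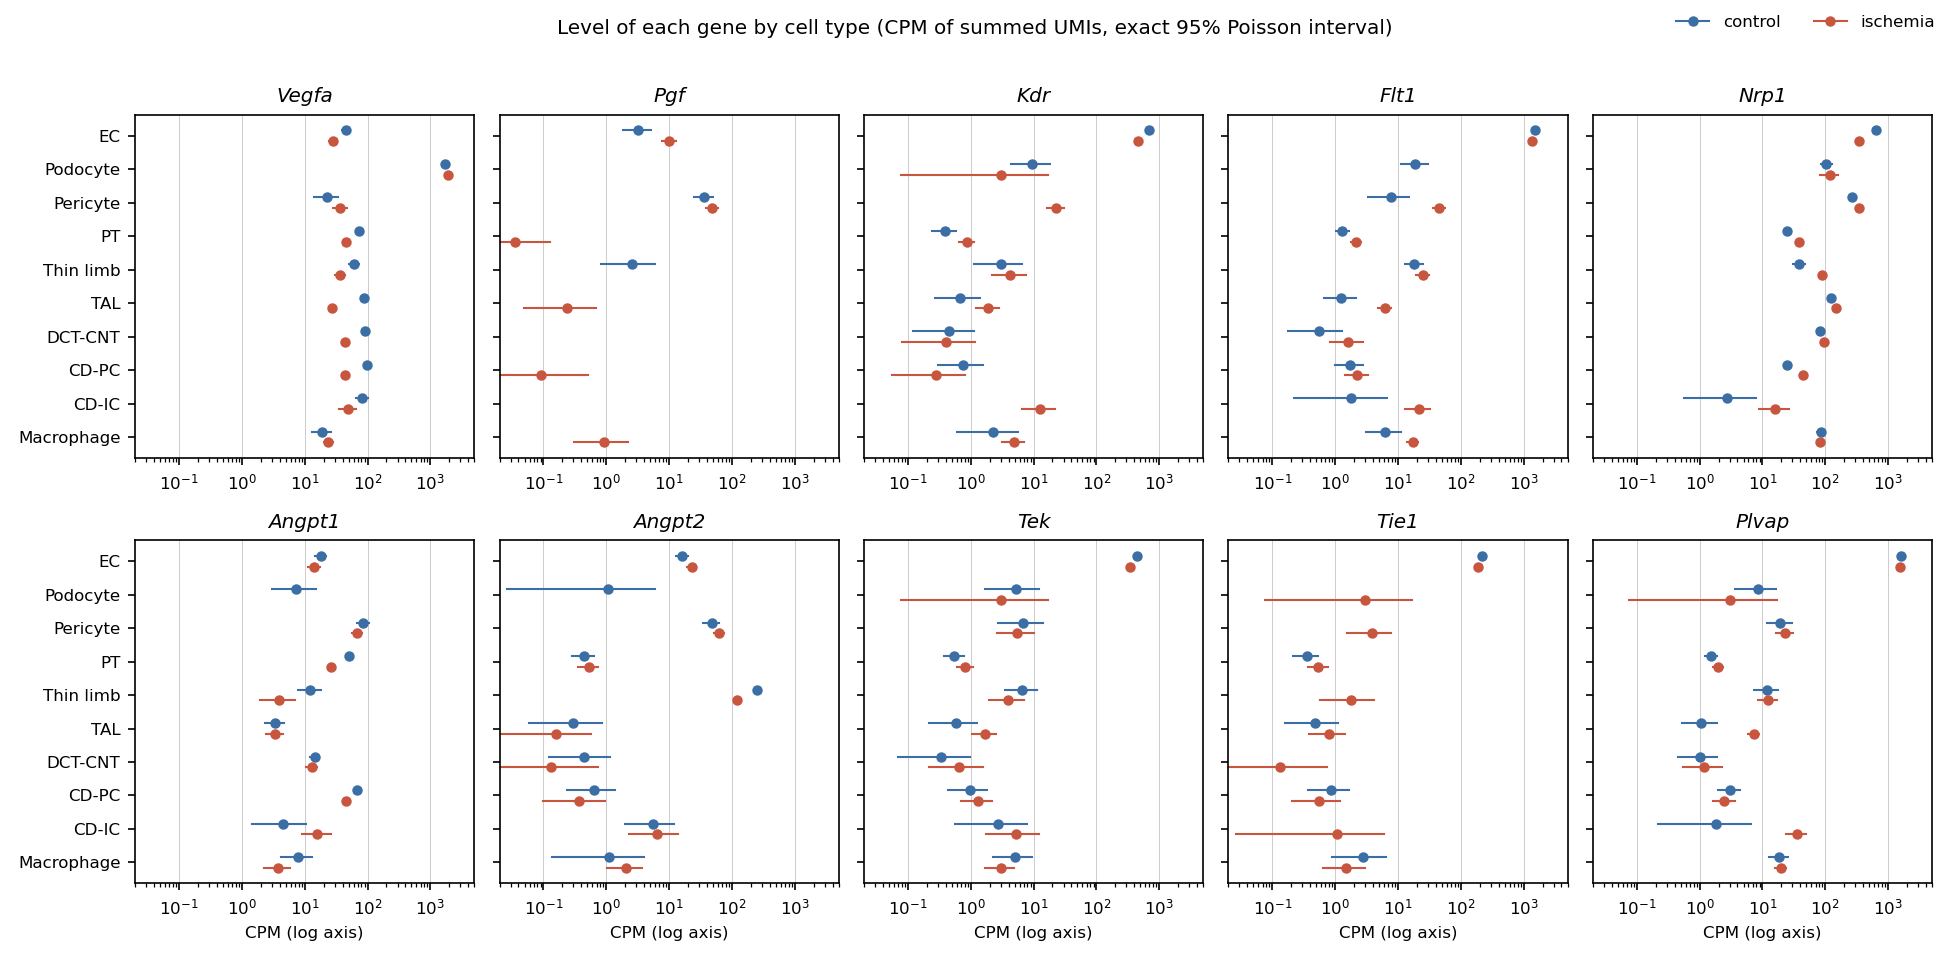
CPM of each gene (log axis) in 10 cell types for the control (blue) and ischemia (red) library, with 1 point for each library and its exact 95% Poisson interval; types without a UMI have no point, and some intervals run past the left edge. *Kdr*, *Flt1*, *Tek*, *Tie1* and *Plvap* peak in EC-like cells, *Vegfa* in podocyte-like cells (1704 and 1943 CPM) and *Angpt2* in thin limb-like cells (252 and 119 CPM).

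A change was counted when the ratio of ischemia to control CPM was at least 2 or at most 0.5, among genes with at least 50 UMIs over both libraries in a type. In EC-like cells all 10 genes could be assessed and 1 passed, *Pgf*, where 5.54% of all 11002 genes passed (1.95% higher and 3.59% lower in ischemia). The median ratio was 0.817 over the 10 genes and 0.993 over all genes. In PT-like cells 1 of 9 assessed genes passed (*Kdr*, background 10.7%), in pericyte-like cells 1 of 7 (*Flt1*, 5.74%) and in macrophage-like cells 1 of 4 (*Flt1*, 10.5%). In thin limb-like cells 2 of 5 passed (*Nrp1* and *Angpt2*, background 10.4%), and in cells like the thick ascending limb (TAL) 3 of 5 (*Vegfa*, *Flt1* and *Plvap*, 15.4%). In cells like the distal convoluted and connecting tubule (DCT-CNT) it was 1 of 3 and in cells like collecting duct principal cells (CD-PC) 1 of 4, both *Vegfa*, with backgrounds of 11.3% and 10.3%. None of the 2 assessed genes in podocyte-like cells (3.35%) and not the 1 assessed in cells like collecting duct intercalated cells (CD-IC, 9.31%) passed. The CD-PC-like class (453 and 393 cells) had *Aqp6*, a marker on the CD-IC list, among its 10 leading genes. At a finer resolution CD-PC-like cells numbered 355 and 307. A further CD-IC-like cluster, led by *Aqp6*, *Atp6v1g3* and *Kit*, then held 98 and 86 cells. The CD-PC-like class may thus hold intercalated cells that the CD-IC-like class, led by *Slc26a4*, lacks. At the finer resolution the *Vegfa*, *Angpt1* and *Nrp1* ratios of CD-PC-like cells moved by less than their counting intervals. The part of such intercalated cells in the other CD-PC-like values and in the CD-IC-like values below was not tested. In EC-like cells 1 of 10 is close to the background, and the counts elsewhere rest on few genes.

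*Vegfa* was highest in podocyte-like cells and lower in ischemia along the tubule. In podocyte-like cells it was at 1704 CPM in control and 1943 in ischemia (1616 and 644 UMIs), a ratio of 1.14 (1.04 to 1.25). Cells with a UMI made up 71.6% and 75.0% of podocyte-like cells, or 67.1% and 66.0% after each cell was thinned to 1000 UMIs. The 5 cells with most *Vegfa* held 540 and 333 of these UMIs, so in ischemia 51.7% of the podocyte signal came from 5 of 64 cells. The small excess in ischemia went to a ratio of 0.972 when each cell's CPM counted equally, and to 0.995 when podocytes were chosen by marker UMIs in place of clusters, so its direction is not settled. T cell-like cells, taken as the background for *Vegfa*, had 10 and 3 UMIs, or 31.3 (15 to 57.5) and 6.77 (1.40 to 19.8) CPM, and 10.1% and 2.59% of them had a UMI (median depth 3014 and 3448 UMIs). Podocyte-like cells had median depths of 4331 and 2244 UMIs and lay far above this background in both libraries.

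PT-like cells, the most numerous named type, held 42.2% of control and 47.0% of ischemia *Vegfa* UMIs, against 16.1% and 11.6% for podocyte-like cells. In PT-like cells *Vegfa* was at 74.1 and 45.3 CPM, a ratio of 0.611 (0.582 to 0.642). The ratio was 0.601 (0.457 to 0.789) in thin limb-like and 0.597 (0.409 to 0.861) in CD-IC-like cells. These 3 intervals lay below 1, and the ratios stayed within the 2-fold limits.

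Among the named tubule and duct types the lowest *Vegfa* ratios were in TAL-like, CD-PC-like and DCT-CNT-like cells. In TAL-like cells *Vegfa* was at 88.2 CPM in control and 27.3 in ischemia, a ratio of 0.309 (0.272 to 0.351), and cells with a UMI made up 74.1% and 42.8%, or 9.05% and 2.85% after thinning, against 4.04% and 0.862% in thinned T cell-like cells. In DCT-CNT-like cells it was at 89.6 and 44.5 CPM, a ratio of 0.497 (0.437 to 0.565). In CD-PC-like cells it was at 96.5 and 44.5 CPM, a ratio of 0.461 (0.412 to 0.515). In the named tubule and duct types the control levels ran from 61.0 CPM in thin limb-like to 96.5 CPM in CD-PC-like cells. The ischemia levels ran from 27.3 CPM in TAL-like to 48.8 in CD-IC-like cells. Neighbours in this order were not all apart: control TAL-like (82.5 to 94.1 CPM) and DCT-CNT-like cells (83.5 to 96.0 CPM) had overlapping intervals, as did DCT-CNT-like and CD-PC-like cells in ischemia. The ischemia levels of the tubule were close to those of neutrophil-like cells (32.7 CPM) and of the unnamed cluster of low depth (42.9 CPM). That cluster was at 58.8 CPM in control, close to thin limb-like cells, and had a ratio of 0.729 (0.616 to 0.861). The part of background RNA in the tubule levels and ratios was not tested.

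The summed markers that define each tubule and duct type were lower in ischemia too. The summed CPM of a type's own list stood at a ratio of 0.520 in PT-like cells (11 of 11 markers lower), 0.411 in TAL-like (7 of 7), 0.406 in DCT-CNT-like (6 of 7) and 0.642 in CD-PC-like cells (7 of 7). It was closer to 1 in thin limb-like (0.754, 6 of 8 lower) and CD-IC-like cells (0.859, 7 of 7 lower). In podocyte-like cells the list stood at 1.03 (2 of 8 markers lower) and in EC-like cells at 1.08 (3 of 10 lower). The part of these lower marker levels in the *Vegfa* values was not tested. Over all kept cells *Vegfa* went from 80.3 to 43.1 CPM, a ratio of 0.537 (0.520 to 0.555), and there fewer cells of a type and less RNA per cell cannot be told apart.

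In 3 non-epithelial types the control level of *Vegfa* could not be separated from background. EC-like cells had 45.1 (39.4 to 51.4) and 28.3 (24.4 to 32.7) CPM, macrophage-like cells 19.0 (13.1 to 26.5) and 23.9 (19.9 to 28.4), and pericyte-like cells 22.2 (14.1 to 33.3) and 36.4 (28.2 to 46.3). Their control intervals overlapped that of T cell-like cells. Their ischemia intervals lay above that of T cell-like cells, for macrophage-like cells only just, but not above the ischemia levels of neutrophil-like cells (32.7 CPM, 21.9 to 47.0, from 0 control and 29 ischemia UMIs) or of the unnamed cluster of low depth (42.9 CPM, against 58.8 in control). The ratio was 1.64 (1.01 to 2.76) in pericyte-like and 1.26 (0.856 to 1.89) in macrophage-like cells, and 0.627 (0.513 to 0.765) in EC-like cells. T cell-like cells themselves stood at 0.217 (0.0383 to 0.841) on 10 and 3 UMIs, and B cell-like cells at 0.352 (0.0776 to 1.31) on 8 and 4 UMIs. Within the pericyte-like class the fibroblast-like sub-cluster had 5 UMIs in 37 control cells and 45 UMIs in 47 ischemia cells, or 23.3 (7.56 to 54.3) and 119 (86.6 to 159) CPM, with 5 and 16 cells positive. Of the 45 ischemia UMIs, 29 were in 5 cells. The unnamed sub-cluster of this class led by *Higd1b* (56 and 76 cells) went the other way, with 15 and 8 UMIs, or 42.2 and 12.7 CPM, a ratio of 0.302 (0.111 to 0.758).

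**Figure D2:**
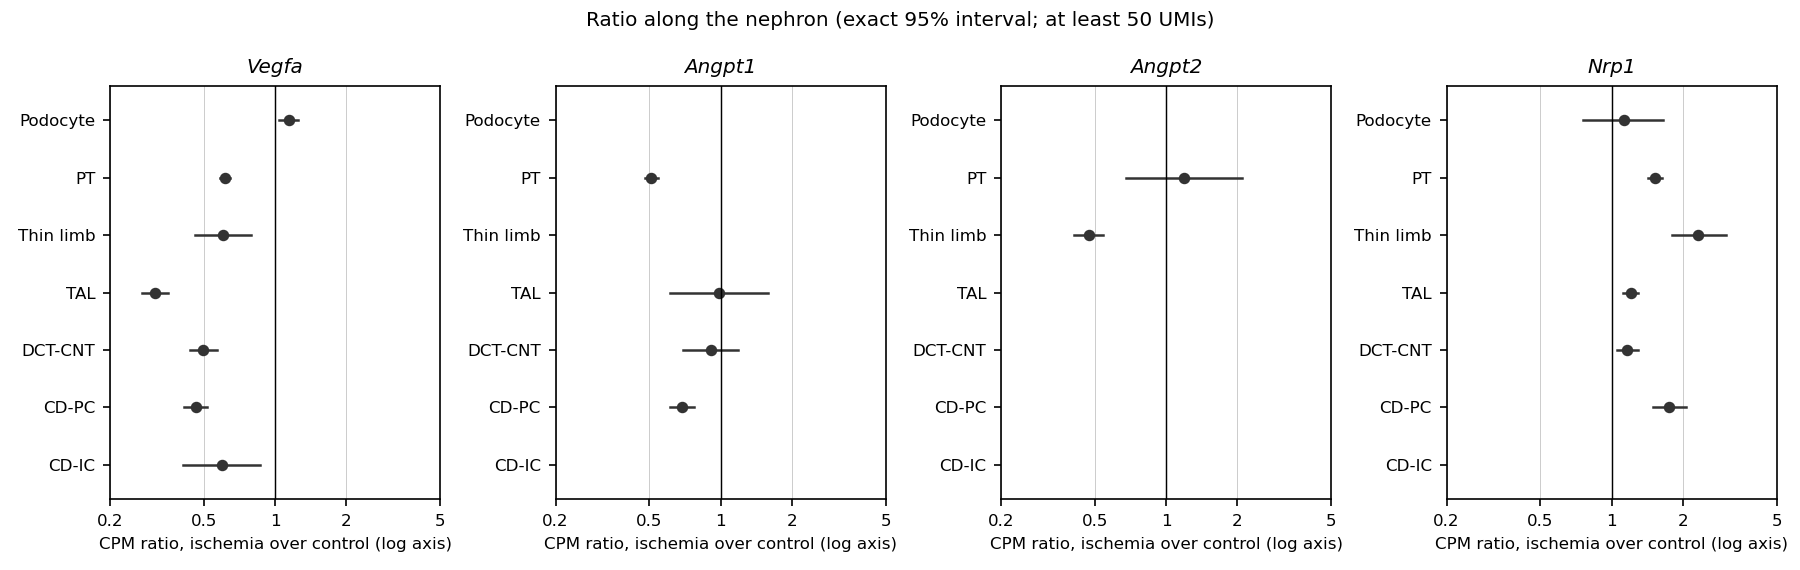
Ratio of ischemia to control CPM (log axis, exact 95% interval) for *Vegfa*, *Angpt1*, *Angpt2* and *Nrp1* in nephron cell types, with 1 library for each condition and points only where a gene had at least 50 UMIs over both libraries. *Vegfa* lies below 1 in the 6 tubule and duct types (0.309 to 0.611) and at 1.14 in podocyte-like cells, *Nrp1* lies at or above 1 in the types drawn, and *Angpt2* is lower in thin limb-like cells (0.472).

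*Pgf* encodes placental growth factor, a VEGF family ligand that binds VEGFR1. It was sparse, with 78 control and 180 ischemia UMIs over all kept cells, and pericyte-like cells held 47.4% and 49.4% of them. In pericyte-like cells it was at 35.7 and 48.4 CPM, a ratio of 1.35 (0.913 to 2.04) whose interval includes 1. In EC-like cells it was at 3.21 and 10.0 CPM (16 UMIs in 10 cells and 65 UMIs in 28 cells), a ratio of 3.12 (1.78 to 5.77). TAL-like cells had 0 and 3 *Pgf* UMIs, found in 0 of 498 cells (an upper limit of 0.602% on the share of cells with a UMI, not on cells expressing the gene) and in 0.609% of 493 cells, against 1.10% and 2.69% of EC-like cells, although TAL-like cells were deeper (medians of 19993 and 24629 UMIs against 3796 and 4248). The higher *Pgf* level in EC-like cells rested on 28 ischemia cells, of which 5 held 35 of the 65 UMIs.

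*Kdr*, the main signaling receptor for VEGF-A, was lower in ischemia EC-like cells. It was at 679 CPM in control (3384 UMIs, 656 to 702) and 452 in ischemia (2941 UMIs, 436 to 469), a ratio of 0.666 (0.634 to 0.70). Cells with a *Kdr* UMI made up 73.1% and 66.1% of EC-like cells, and 43.6% and 31.2% after thinning, against 1.0% and 2.23% of TAL-like cells without thinning. The difference was larger than the counting error but within the 2-fold limits.

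*Flt1*, the VEGFR1 gene, whose product binds VEGF-A tightly and can act as a decoy, differed less. In EC-like cells it was at 1507 and 1363 CPM, a ratio of 0.904 (0.877 to 0.932). Without cells holding 3 UMIs of another type's markers, which left 8 control and 153 ischemia EC-like cells, the *Flt1* ratio was 2.14 (1.08 to 4.99). The intervals of *Kdr* and *Flt1* do not overlap, so in the same cells the *Kdr* ratio was below that of *Flt1*. Over all kept cells *Flt1* was at 64.9 and 76.9 CPM (1.18), while *Kdr* was at 32.1 and 28.5 CPM (0.886).

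*Nrp1*, the co-receptor gene, had the lowest ratio of the 10 genes in EC-like cells and higher values in most of the tubule. In EC-like cells it was at 641 CPM in control and 347 in ischemia, a ratio of 0.541 (0.512 to 0.571), and the share of cells with a UMI was 76.1% and 58.8%, or 41.0% and 23.8% after thinning. TAL-like cells, the background for the other endothelial genes, carried *Nrp1* themselves, at 124 and 150 CPM with 76.5% and 79.3% of cells positive. CD-IC-like cells, chosen as a low type after their values were seen, had 2.73 and 15.9 CPM (3 and 15 UMIs), with 1.72% and 10.9% of cells positive (median depth 16864.5 and 22124.5 UMIs). In ischemia these cells also carried 33 *Plvap* and 20 *Flt1* UMIs, against 2 of each in control. The part of this in their *Nrp1* level was not tested.

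Outside the endothelium *Nrp1* was higher in ischemia in PT-like cells, at 24.9 and 38.0 CPM, a ratio of 1.53 (1.43 to 1.64). In CD-PC-like cells it was at 24.7 and 43.4 CPM, a ratio of 1.76 (1.5 to 2.06). In thin limb-like cells it was at 38.6 and 90.1 CPM, a ratio of 2.33 (1.80 to 3.05). In the last type 5 cells held 110 of 253 ischemia UMIs, and the summed pericyte markers there were 50.8 and 221 CPM, whose part in the result was not tested. The ratio was 1.21 (1.12 to 1.29) in TAL-like and 1.17 (1.05 to 1.29) in DCT-CNT-like cells. In pericyte-like cells *Nrp1* was at 266 and 350 CPM, a ratio of 1.32 (1.14 to 1.52), which went to 0.794 without integration and to 0.792 with the listed genes kept among the variable genes. In these 2 settings the 64 control and 51 ischemia cells of an unnamed cluster rich in *Nrp1* (1544 and 1634 CPM) joined the pericyte-like class. Macrophage-like cells stood at 85.9 and 83.7 CPM (0.974, 0.810 to 1.18). Over all kept cells *Nrp1* was at 74.7 and 81.2 CPM, a ratio of 1.09 (1.06 to 1.12).

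*Angpt1*, the ligand that activates Tie2, was counted mostly in PT-like cells, which held 68.9% of its control and 57.9% of its ischemia UMIs. There it was at 50.8 and 25.8 CPM (2892 and 1486 UMIs), a ratio of 0.508 (0.477 to 0.541). TAL-like cells had 3.39 and 3.33 CPM, with 4.82% and 5.88% of cells positive against 43.0% and 31.3% of PT-like cells, whose median depth was 26546 and 36031 UMIs. The PT-like class held 2 clusters that differed in level, at 79.7 and 41.1 CPM in the larger source and 7.66 and 1.40 CPM in the other. Both were lower in ischemia, with ratios of 0.516 (0.484 to 0.550) and 0.182 (0.120 to 0.268).

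Outside the PT, *Angpt1* was at 67.1 and 46 CPM in CD-PC-like cells, a ratio of 0.685 (0.608 to 0.772). In pericyte-like cells, the source known from other vascular beds, it was at 85.0 and 68.5 CPM, a ratio of 0.806 (0.609 to 1.07). The pericyte interval includes 1. In DCT-CNT-like cells (0.909, 0.693 to 1.19) and EC-like cells (0.784, 0.580 to 1.06) the intervals also included 1. Over all kept cells *Angpt1* went from 33.7 to 19.9 CPM.

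*Angpt2*, whose product can block angiopoietin 1 at Tie2, was most abundant in the small thin limb-like class of 103 and 94 cells. These cells held 63.3% of control and 46.3% of ischemia *Angpt2* UMIs and were at 252 (230 to 275) and 119 (106 to 132) CPM, a ratio of 0.472 (0.409 to 0.543). A UMI was found in 58.3% and 45.7% of them, against 0.402% and 0.406% of TAL-like cells, so the signal was not a background shared by all types. It was uneven, with 187 of 496 control and 164 of 334 ischemia UMIs in 5 cells. At resolution 0.6 the thin limb-like class held 89 and 77 cells, and an unnamed cluster of 14 and 18 cells led by *Cp*, *Ncam1* and *Tnc* appeared. The *Angpt2* and *Nrp1* ratios of the class then moved by less than their counting intervals. Whether the unnamed cells came from this class, and their part in its levels, was not tested.

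In the vessel wall *Angpt2* leaned the other way. EC-like cells were at 16.2 and 23.1 CPM (81 and 150 UMIs), a ratio of 1.42 (1.08 to 1.88). This direction depended on how the cells were chosen, since a gate on marker UMIs gave 0.936 (0.736 to 1.19). Pericyte-like cells were at 47.3 and 63.1 CPM, a ratio of 1.33 (0.946 to 1.90), and this too went below 1 without integration (0.871). The summed level over all kept cells was 6.29 and 5.60 CPM.

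*Tek* and *Tie1*, the receptor pair of the angiopoietins, were both lower in ischemia EC-like cells. *Tek* was at 448 and 349 CPM, a ratio of 0.778 (0.734 to 0.825). *Tie1* was at 219 and 186 CPM, a ratio of 0.850 (0.782 to 0.923). Cells with a UMI made up 72.6% and 62.8% for *Tek* and 56.5% and 51.8% for *Tie1*, where TAL-like cells had 1.2% and 2.84%, and 1.0% and 1.01%. The intervals of the 2 ratios overlapped. In the 8 control and 153 ischemia EC-like cells left without those holding 3 UMIs of another type's markers, *Tek* was at 1.11 (0.366 to 5.48) and *Tie1* at 1.96 (0.336 to 79.0), on 3 and 1 control UMIs.

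*Plvap*, the diaphragm gene, was nearly level in EC-like cells, at 1590 and 1550 CPM, a ratio of 0.975 (0.946 to 1.0). A UMI was found in 78.8% and 77.2% of EC-like cells, and in 64.1% and 64.3% after thinning. With *Flt1* it stood closest to 1 among the endothelial genes, while the EC marker list as a whole stood at 1.08 (1.07 to 1.10). The intervals of *Kdr*, *Flt1*, *Nrp1*, *Tek*, *Tie1* and *Plvap* thus all lay below that of the summed markers. That interval is the counting error of a sum and not the spread of the markers. Of the 10 markers 7 were higher and 3 lower in ischemia, among them *Ehd3*, also on the glomerular list, at 242 and 146 CPM. PT markers in EC-like cells went from 2512 to 945 CPM, and their part in these ratios was not tested.

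EC-like cells were clustered again to see where these differences lay. A cortical capillary-like sub-cluster held 436 control and 501 ischemia cells and a glomerular-like one 71 and 39. The other 4 stayed unnamed: sub-cluster 1 (156 and 247 cells of low depth), sub-cluster 2, led by *Mgp*, *Aqp1* and *Fbln5* (104 and 122), sub-cluster 3, led by *Ccl21a*, *Lyz2* and *Il1b* (99 and 102), and sub-cluster 5, led by PT genes (39 and 28). The 10 genes were not used to form these groups.

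In cortical capillary-like cells, from the peritubular network, the VEGF receptors were lower in ischemia. *Kdr* was at 973 and 560 CPM, a ratio of 0.576 (0.536 to 0.619). *Flt1* was at 2507 and 1913 CPM, a ratio of 0.763 (0.732 to 0.796). *Nrp1* was at 832 and 404 CPM, a ratio of 0.485 (0.447 to 0.527). *Tek* stood at 0.697 (0.642 to 0.757), *Tie1* at 0.767 (0.679 to 0.866) and *Plvap* at 0.932 (0.897 to 0.969). All 6 of these genes therefore lay below 1 in this sub-cluster, with *Nrp1* past the 2-fold limit. Among the other members *Angpt2* (4.70) and *Vegfa* (0.374) were past it too. On fewer UMIs so were *Pgf* (4.57, 6 and 40 UMIs) and *Angpt1* (0.305, 9 and 4 UMIs). The shares of all genes below 1 or past 2-fold were not counted in this sub-cluster, so nothing is read from these counts.

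Glomerular-like cells, the capillaries next to podocytes, did not share the lower VEGF receptor and *Nrp1* levels. *Kdr* was at 1955 (1833 to 2084) and 2245 (2087 to 2412) CPM, a ratio of 1.15 (1.04 to 1.26). *Flt1* was at 1007 and 1368 CPM, a ratio of 1.36 (1.19 to 1.55). *Nrp1* was at 1635 and 1727 CPM, a ratio of 1.06 (0.947 to 1.18). For these 3 genes the ratio intervals of the glomerular-like and cortical capillary-like cells did not overlap. The glomerular-like group was small, with 39 ischemia cells, and cells of 1 library are not replicates, so whether another mouse would show the same was not tested. *Tek* (0.832, 0.630 to 1.09) and *Tie1* (1.23, 0.841 to 1.80) had intervals that included 1.

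Glomerular-like cells had the highest *Kdr* and made up 7.85% of control and 3.75% of ischemia EC-like cells. With each library's sub-clusters weighted as in control, the EC-like ratio was 0.782 for *Kdr* in place of 0.666 and 0.640 for *Nrp1* in place of 0.541. Both stayed below 1.

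*Plvap* also separated these beds. It was at 2721 and 2536 CPM in cortical capillary-like cells and at 28.7 (15.7 to 48.2) and 98.8 (68.0 to 139) CPM in glomerular-like cells, where 7 cells in each library had a UMI. The glomerular values rest on 14 and 33 UMIs, and the summed macrophage markers there were 28.7 and 105 CPM, whose part was not tested. In both libraries the glomerular-like level lay far below the cortical capillary-like one.

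*Angpt2* was the reverse of the receptors in cortical capillary-like cells. It was at 7.73 (4.12 to 13.2) and 36.3 (29.1 to 44.7) CPM, from 13 UMIs in 8 cells and 89 UMIs in 36 cells, a ratio of 4.70 (2.61 to 9.16). In unnamed sub-cluster 3 it was at 88.9 and 36.3 CPM (49 and 31 UMIs), a ratio of 0.408 (0.252 to 0.653). In that sub-cluster the summed lymphatic markers were 2700 and 686 CPM and the neutrophil markers 21.8 and 671 CPM. Without its 5 and 8 cells that had at least 3 lymphatic marker UMIs, *Angpt2* stood at 86.8 and 28.1 CPM, so the ischemia level was lower in the remaining cells too. The summed medullary and venous markers were 1054 and 1973 CPM in cortical capillary-like cells, and 3524 and 2803 CPM in sub-cluster 3. The cortical capillary list stood at 2511 and 2201 CPM in the cortical capillary-like cells. The part of such differences in the cells grouped together was not tested. The modest EC-like ratio of 1.42 thus joined sub-clusters with ratios on both sides of 1, and it was 2.72 (1.79 to 4.26) with sub-clusters 1, 3 and 5 left out.

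*Pgf* and *Vegfa* in cortical capillary-like cells were at low counts. *Pgf* had 6 and 40 UMIs (3.57 and 16.3 CPM), a ratio of 4.57 (1.93 to 13.2). *Vegfa* had 44 and 24 UMIs (26.2 and 9.79 CPM), a ratio of 0.374 (0.218 to 0.629), while glomerular-like cells had 96.4 and 111 CPM. The cortical capillary-like *Vegfa* levels lay within the T cell-like background intervals, and the glomerular-like levels (70.9 to 128 and 78.0 to 153 CPM) lay above them.

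**Figure D3:**
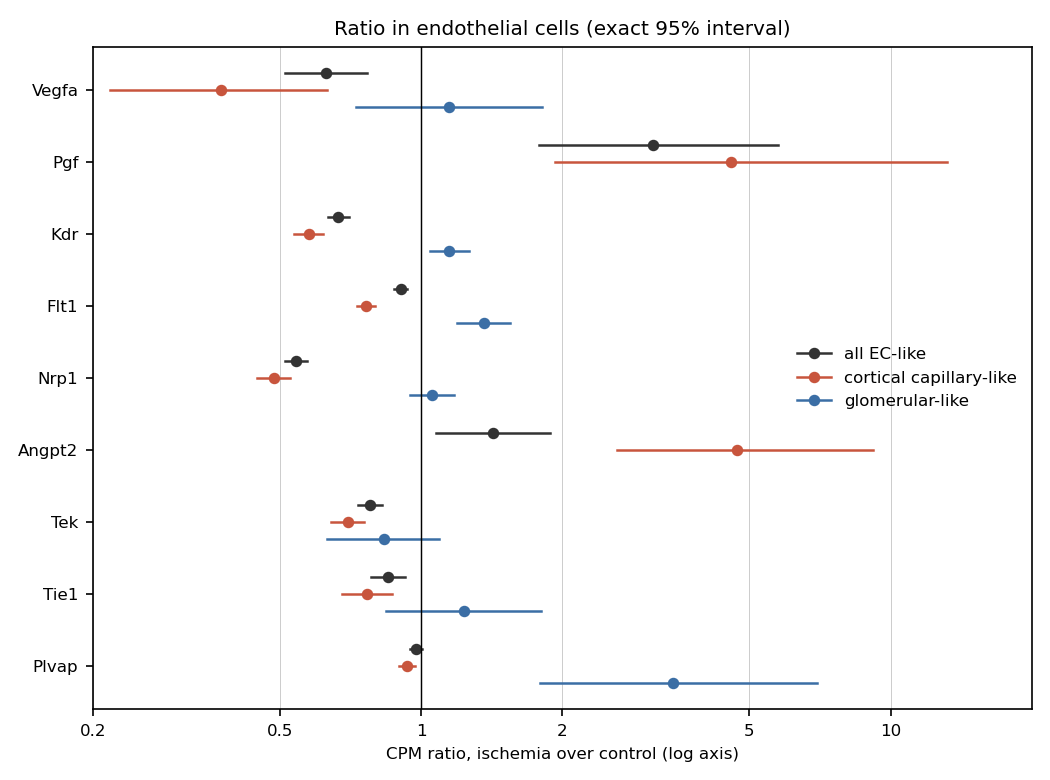
Ratio of ischemia to control CPM (log axis, exact 95% interval) for 9 genes in all EC-like (black), cortical capillary-like (red) and glomerular-like (blue) cells, 1 library for each condition; points are drawn where a gene had at least 46 UMIs, and *Angpt1* is not drawn. *Kdr*, *Flt1* and *Nrp1* lie below 1 in cortical capillary-like cells (0.576, 0.763 and 0.485) and at or above 1 in glomerular-like cells (1.15, 1.36 and 1.06).

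In sub-cluster 2, *Kdr* was low in both libraries, at 157 and 205 CPM (1.30, 1.09 to 1.56), and *Nrp1* went from 369 to 201 CPM (0.546, 0.474 to 0.628). *Angpt1* was at 42 (31.3 to 55) and 39.6 (30.9 to 49.96) CPM there, with intervals that overlapped those of sub-cluster 5. The lower *Nrp1* was found in each sub-cluster but the glomerular-like one, with ratios from 0.437 in sub-cluster 3 to 0.623 in sub-cluster 5.

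Sub-clusters of the pericyte-like class divided the ligands. An unnamed sub-cluster led by *Higd1b* (56 and 76 cells) had *Pgf* at 76.0 and 102 CPM and *Angpt2* at 84.4 and 115 CPM, the highest of the class for both. Smooth muscle-like cells (53 and 64) had *Angpt2* at 34.4 and 61.2 CPM (1.78, 0.935 to 3.62) and *Angpt1* at 58.1 and 91.0 CPM (1.57, 0.947 to 2.68). Fibroblast-like cells (37 and 47) had *Angpt1* at 135 and 44.9 CPM, a ratio of 0.332 (0.171 to 0.625) from 29 and 17 UMIs. In the *Higd1b*-led sub-cluster *Angpt1* was at 101 and 73.2 CPM, a ratio of 0.723 (0.457 to 1.15) from 36 and 46 UMIs. Of these 3 *Angpt1* intervals, that of fibroblast-like cells alone excluded 1.

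Endothelial genes were also counted at low levels in cells of other types, and the direction differed by type. In TAL-like cells *Plvap* had 11 and 92 UMIs, a ratio of 6.85 (3.66 to 14.2), and *Flt1* had 13 and 77 UMIs, a ratio of 4.85 (2.68 to 9.52). In pericyte-like cells *Flt1* had 8 and 84 UMIs, a ratio of 5.91 (2.87 to 14.1). *Kdr* there had 0 and 42 UMIs, with an exact lower 95% limit of 6.13 on the ratio, and 31 of the 42 came from 1 smooth muscle-like cell. With 0 of 176 control cells positive, the upper limit on the share of cells with a *Kdr* UMI was 1.70%, which is no limit on cells expressing the gene. These counts sat in few cells: 5 cells held 54 of the 92 *Plvap* UMIs in TAL-like cells, 62 of the 84 *Flt1* and 41 of the 42 *Kdr* UMIs in pericyte-like cells. The summed EC markers were 129 and 210 CPM in TAL-like and 367 and 439 CPM in pericyte-like cells, and their part in these ratios was not tested. In PT-like cells *Kdr* was at 0.386 and 0.868 CPM (22 and 50 UMIs), a ratio of 2.25 (1.34 to 3.90), with EC markers at 13.3 and 20.9 CPM. In macrophage-like cells *Flt1* had 11 and 92 UMIs, a ratio of 2.80 (1.49 to 5.79), with 51 of the 92 in 5 cells and EC markers at 100.4 and 122 CPM. In podocyte-like cells the counts were higher in control: *Flt1* had 18 and 0 UMIs, with an upper limit of 0.651 on the ratio, while *Kdr* had 9 and 1 (0.318, 0.00725 to 2.29) and *Plvap* 8 and 1 (0.358, 0.00806 to 2.67). *Kdr* in CD-PC-like cells had 7 and 3 UMIs (0.367, 0.0612 to 1.61). On few UMIs, CD-IC-like cells were higher in ischemia for *Plvap*, with 2 and 33 (19.3, 4.93 to 166), and *Flt1*, with 2 and 20 (11.7, 2.84 to 103). In T cell-like cells *Flt1* had 1 and 19 UMIs (13.7, 2.18 to 570).

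The unnamed cluster rich in *Nrp1*, led by *Ptn*, *Adamts5* and *Serpine2*, held 64 control and 51 ischemia cells. Its summed EC markers were 4078 and 3915 CPM, but none of its 10 leading genes was on the EC list, so it kept no name. Of these leading genes *Serpine2* and *Itga8* are on the mesangial and renin list, which served only for pericyte-like sub-clusters. Without integration all 64 and 51 cells joined the pericyte-like class. Which cell type the cluster is was not tested. *Kdr* was at 595 and 800 CPM there (1.34, 1.18 to 1.53) and *Flt1* at 373 and 649 CPM (1.74, 1.5 to 2.03). *Plvap* was at 228 and 105 CPM, a ratio of 0.461 (0.340 to 0.616), and *Tek* at 120.4 and 67.6 CPM (0.562, 0.379 to 0.818). The receptor counts came from few cells, with 399 of 473 ischemia *Kdr* UMIs and 366 of 384 ischemia *Flt1* UMIs in 5 cells, so these ratios describe those cells.

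Of the 35 other pathway genes listed, 31 could be assessed in EC-like cells. There 2 were at least 2-fold higher in ischemia, 0 were at least 2-fold lower, and the median ratio was 1.14. Of all genes 5.54% passed in either direction, close to the 2 of 31, and 1.95% passed as higher in ischemia, so with so few genes nothing is read from this count. The higher ones were *Apln*, encoding the tip cell peptide apelin, at 5.82 and 59.4 CPM (10.2, 6.99 to 15.4), and its receptor gene *Aplnr* at 9.63 and 33.4 CPM (3.47, 2.53 to 4.84). Both belong to the 7 listed genes that VEGF signaling induces or that mark tip cells, all 7 of which were assessed, with a median of 1.32. *Esm1* (1.25, 1.17 to 1.32), *Dll4* (1.32, 1.15 to 1.52) and *Nrarp* (1.88, 1.37 to 2.61) had ratios within the 2-fold limit and intervals above 1. The intervals of *Egr3* (1.15, 0.834 to 1.60) and *Rcan1* (1.18, 0.968 to 1.45) included 1. All genes had a median ratio of 0.993 and the EC marker list stood at 1.08. The share of all genes above 1 was not counted, so nothing is read from the direction of this group.

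At the other end, the lowest ratios were those of *Ppargc1a*, a coactivator of mitochondrial genes that can induce *Vegfa*, at 23.9 and 12 CPM (0.503, 0.373 to 0.674), and *Bnip3*, a hypoxia-induced mitophagy gene, at 42.7 and 29.5 CPM (0.691, 0.566 to 0.844). Among the other receptors *Nrp2*, the relative of *Nrp1*, was at 129 and 189 CPM (1.47, 1.33 to 1.62), opposite to *Nrp1*, and *Flt4*, the VEGFR3 gene, had a ratio of 1.06 (0.923 to 1.21). The ligand genes *Vegfc* (1.04, 0.883 to 1.22) and *Vegfb* (0.837, 0.640 to 1.10) had intervals that included 1, and *Vegfd* and *Angpt4* were too sparse to assess. *Ptprb*, the phosphatase that restrains Tie2, was at 883 and 704 CPM (0.798, 0.766 to 0.832).

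**Figure D4:**
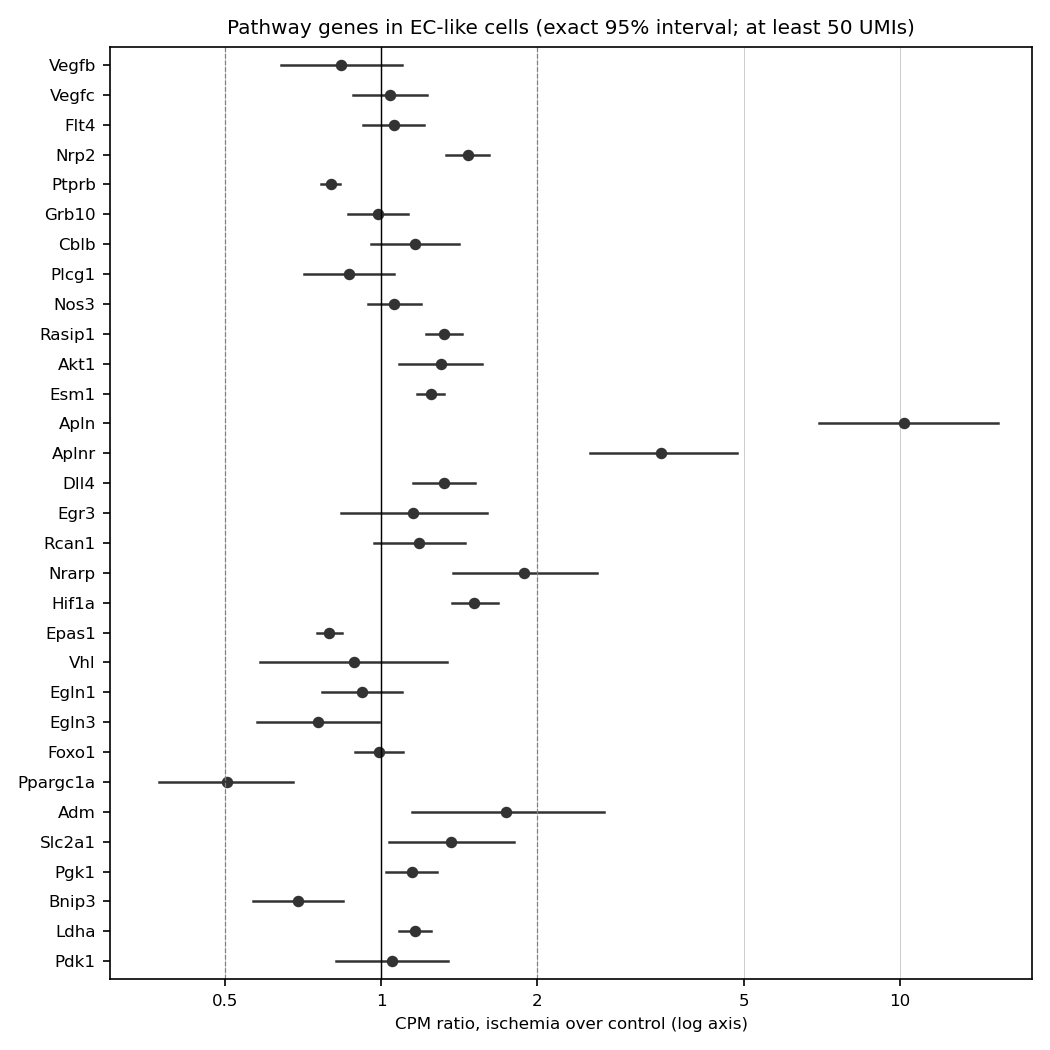
Ratio of ischemia to control CPM (log axis, exact 95% interval) in EC-like cells for the 31 pathway genes with at least 50 UMIs, ordered by role, 1 library for each condition; dashed lines mark 0.5 and 2. *Apln* (10.2) and *Aplnr* (3.47) lie to the right of 2, and the other 29 genes lie between the dashed lines.

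Upstream genes were also read in tubule types where *Vegfa* was lower and in podocyte-like cells. The list holds the hypoxia factors *Hif1a* and *Epas1*, their regulators *Vhl*, *Egln1* and *Egln3*, and *Foxo1* and *Ppargc1a*. In PT-like cells 7 of 7 were assessed, of which 0 were at least 2-fold higher and 1 lower, *Egln3*, with 47 and 19 UMIs (0.40, 0.222 to 0.694). In TAL-like cells 1 of 7 was at least 2-fold lower, *Ppargc1a*, at 391 and 87.1 CPM (0.223, 0.208 to 0.238), while *Hif1a* was at 91.6 and 150 CPM (1.64, 1.51 to 1.77). Of all genes 10.7% passed in either direction in PT-like and 15.4% in TAL-like cells, so nothing is read from these counts. In podocyte-like cells 2 were assessed and 0 passed. In DCT-CNT-like cells 0 of 7 passed, and in CD-PC-like cells 1 of 7, *Ppargc1a*, was at least 2-fold lower. *Ppargc1a* was also at least 2-fold lower in thin limb-like and macrophage-like cells. *Vegfb* shared the direction of *Vegfa* in TAL-like cells, at 115 and 24.7 CPM (0.215, 0.189 to 0.244), but not in PT-like cells, at 46.5 and 52.3 CPM (1.13, 1.07 to 1.19). It was also at least 2-fold lower in thin limb-like, DCT-CNT-like and CD-IC-like cells. The ligands *Vegfd* and *Angpt4* were at least 2-fold lower in pericyte-like cells, with ratios of 0.474 (0.287 to 0.779) and 0.491 (0.300 to 0.798). Of the 19 pathway genes assessed there, these 2 were lower and 3 higher (*Esm1*, *Hif1a* and *Slc2a1*), where 5.74% of all genes passed. *Vegfd* was also at least 2-fold lower in DCT-CNT-like and CD-PC-like cells.

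Genes with the most similar pattern were sought by Pearson's r of log2 CPM over 24 points, 12 cell types in 2 libraries, among 14315 genes. These points share libraries and depth, so the values are descriptions only. For *Vegfa* they were *Zfp385b* (0.948), *Rassf10* (0.934) and *Gm29266* (0.931). *Kdr* was closest to *Gpihbp1* (0.987), *Flt1* (0.982) and *Egfl7* (0.982), and *Plvap* to *Adgrl4* (0.988), *Cdh5* (0.984) and *Egfl7* (0.978). *Angpt2* was closest to *Gli3* (0.95), *Akap12* (0.944) and *Cdh13* (0.924), and *Angpt1* to *Tbx2* (0.852), *2610027K06Rik* (0.817) and *Col27a1* (0.773). The endothelial genes had close partners and *Angpt1*, spread over PT-like, CD-PC-like and pericyte-like cells, had the loosest.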

How the data were processed

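Kidneys of wildtype mice were digested with enzymes and the cells profiled by droplet scRNAseq (1 control and 1 ischemia library). The authors deposited raw UMI counts per gene and barcode, made with Cell Ranger 7.0.0 on mm10 per the labels and not normalized. From 15110 control and 15257 ischemia barcodes, those with fewer than 200 genes, fewer than 500 or more than 150000 UMIs, or over 55% mitochondrial UMIs were dropped.

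Cells were grouped with Seurat 5.3.0 under R 4.3.3: scale factor 10000, 2000 variable genes chosen without the 10 genes and the pathway genes, anchor integration, 30 principal components, resolution 0.3 and seed 42. Each cluster was scored on every marker list by averaging, over the markers, the log2 of CPM relative to the median cluster (pseudocount 10 CPM). The best list gave the name if 3 or more of its markers reached 10 UMIs, and if the cluster's 10 genes of highest fold included 1 or more of that list and fewer of any other. EC-like and pericyte-like cells were clustered again in the same way.

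CPM are summed UMIs of a gene over all UMIs of the cells. Intervals are exact Poisson (CPM), Clopper-Pearson (shares) and exact conditional (ratios). Where no UMI was seen, 3 counts served as the upper limit. For shares of cells with a UMI, cells were also thinned to 1000 UMIs, and shallower cells were left out (22 control and 57 ischemia EC-like cells, 10 and 11 podocyte-like cells). With 1 library per group no test was run. The interval code was run on simulated Poisson counts. Such counts lack the clumping of UMIs in few cells found here, so that run cannot show whether the intervals fit these data. Software was scanpy 1.11.5, matplotlib 3.10.9, pandas 2.3.3, scipy 1.17.1 and numpy 2.4.6, run in Python 3.11.15.

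The 10 genes, the pathway genes and the marker lists were chosen with earlier results of these data known. The text names the 10 genes, *Havcr1*, the pathway genes with the 2 highest and 2 lowest ratios in EC-like cells, the other ligands and receptors, and for 5 of the 10 genes the 3 genes, among those with at least 200 UMIs, with the highest Pearson r of log2(CPM + 10). Other pathway genes given with values (*Esm1*, *Dll4*, *Nrarp*, *Egr3*, *Rcan1*, *Ptprb*, *Hif1a*, *Egln3*), and *Slc2a1*, were chosen after their values were seen. Doublets were kept: Scrublet called 0 cells, which counts as a failed call. Alternatives were a limit of 25% mitochondrial UMIs, at least 1000 UMIs, no integration, resolution 0.6, the 10 genes kept among the variable genes, a gate on marker UMIs, the mean of per-cell CPM, CPM without mitochondrial UMIs, scaling to the median gene, cells with 3 UMIs of another list left out, the control library's mix of EC-like sub-clusters and thinning. Removal of the top 8% of cells by doublet score, leaving out EC-like sub-clusters 1, 3 and 5, leaving out cells with lymphatic UMIs, and running the alternatives for further gene and type pairs were added after seeing the data.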

Additional observations from a re-analysis of the deposited data

Results flagged for a closer look

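For several genes the ratio of ischemia to control CPM lay above 1 in one cell type and below 1 in another, with both 95% counting intervals on their own side of 1. With 1 library for each condition, these differences between cell types were not tested. *Vegfa* had a ratio of 1.64 in pericyte-like and 0.309 in TAL-like cells, and the first pools 5.10 in the fibroblast-like and 0.302 in the *Higd1b*-led sub-cluster. *Kdr* had 2.25 in PT-like and 0.666 in EC-like cells, the first on 22 and 50 UMIs. *Flt1* had 5.91 in pericyte-like and 0.904 in EC-like cells, where 5 pericyte-like cells held 62 of 84 ischemia UMIs. *Nrp1* had 2.33 in thin limb-like and 0.541 in EC-like cells. *Angpt2* had 1.42 in EC-like and 0.472 in thin limb-like cells.

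Within the EC-like cells, *Kdr* had a ratio of 1.15 in glomerular-like and 0.576 in cortical capillary-like cells, and *Flt1* had 1.36 and 0.763. In sub-cluster 2 *Kdr* stood at 1.30 and *Flt1* at 1.08. These differences were not tested either, and the glomerular-like values rest on 71 control and 39 ischemia cells.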

How the results depend on the processing

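With 1 library for each condition no replicate could be left out, and depth limits every value to counting error between 2 kidneys. No paired analysis was possible because each group has 1 library and the labels give no replicate number. In EC-like cells *Kdr* and *Nrp1* kept their side of 1 in 13 of 13 alternatives and *Pgf* in 12 of 12, and *Vegfa* did in PT-like and TAL-like cells in 11 of 11. At resolution 0.6, 25 of 25 results moved by less than their counting interval. Scrublet's own threshold called 0 cells and gave no alternative.

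Without integration *Vegfa* stood at 1.02 in podocyte-like, 0.888 in PT-like and 0.544 in TAL-like cells, with only 222 ischemia PT-like and 13 ischemia TAL-like cells, and *Angpt2* at 0.871 and *Nrp1* at 0.794 in pericyte-like cells. With the listed genes kept among the variable genes the last 2 were 0.873 and 0.792. In both settings the unnamed cluster of 64 and 51 cells joined the pericyte-like class. A gate on marker UMIs gave 0.942 for *Plvap* and 0.936 for *Angpt2* in EC cells and 0.995 for *Vegfa* in podocytes. The mean of per-cell CPM gave 0.821 for *Flt1*, 0.733 for *Tek* and 0.900 for *Plvap* in EC-like cells, and for *Vegfa* 0.972 in podocyte-like and 0.672 in PT-like cells. *Vegfa* in PT-like cells was 0.573 at a limit of 25% mitochondrial UMIs, 0.577 without mitochondrial UMIs and 0.573 relative to the median gene.

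Leaving out cells with 3 UMIs of another marker list left 8 control and 153 ischemia EC-like, 200 and 376 PT-like, 11 and 45 TAL-like and 0 control podocyte-like cells, which gave no podocyte value. There *Flt1* stood at 2.14, *Tek* at 1.11, *Tie1* at 1.96, *Nrp1* at 0.654, *Plvap* at 1.36 and *Angpt2* at 1.0 in EC-like cells, and *Vegfa* at 0.718 in PT-like and 0.258 in TAL-like cells. With the control mix of sub-clusters *Kdr* was 0.782, *Flt1* 0.875, *Nrp1* 0.640 and *Plvap* 0.886. Without the 8% highest doublet scores, chosen after seeing the data, *Flt1* was 0.840, *Tek* 0.712, *Nrp1* 0.509 and *Plvap* 0.905. Without sub-clusters 1, 3 and 5, also chosen later, *Plvap* was 1.02, *Angpt2* 2.72, and 2 of the 10 genes passed 2-fold in place of 1, where 4.74% of all genes passed in place of 5.54%. The causes of these shifts were not tested, beyond the cell counts given. Thinning moved 18 of 20 shares of positive cells. Of all genes in EC-like cells, 11.0% passed 2-fold at a minimum of 10 UMIs, 5.54% at 50 and 3.87% at 200.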
